A study of Mus musculus with 35 samples.

Results

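The livers of mice given 10 mg/kg of SP30 were set against those of mice given 20 mg/kg of SP70, across all genes that the arrays name. SP30 and SP70 are silica particles, SP30 being the smallest of the study and SP70 the middle size. The 5 arrays titled for SP30 at 10 mg/kg and the 5 titled for SP70 at 20 mg/kg were taken by their titles, 10 of the 35 arrays of the series. Every mouse was BALB/c and was killed 6 h after an intravenous injection, and total RNA of the left lateral lobe was put on 1 array per mouse. The groups compared here had received 10 mg/kg of SP30, one of 3 doses of SP70 (10, 20 or 40 mg/kg), or deionized water as a vehicle control. Each held 5 randomly assigned mice. Mice given 10 or 200 mg/kg of SP300, the remaining particle, were also in the signal filter and the joint fit, but are not compared here. The labels state neither age nor sex. The study calls 10 mg/kg a toxic dose of SP30 and 40 mg/kg a toxic dose of SP70, so a toxic dose of one particle was compared with a middle dose of the other. The particles differed both in size and in dose by mass, and the contributions of size and dose cannot be told apart in this comparison.

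Particles injected into a vein are cleared from blood largely by the liver, where Kupffer cells, its resident macrophages, and sinusoidal endothelial cells take them up. Activated macrophages release cytokines and chemokines through NF-kB, neutrophils and monocytes enter from blood, and hepatocytes answer with acute phase proteins. Cells short of oxygen stabilise hypoxia-inducible factor (HIF), which switches on glucose uptake, glycolysis and blood vessel genes.

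Of 12678 genes tested, 2251 differed (limma's moderated test, Benjamini-Hochberg adjusted p under 0.05). After SP30, 665 were higher (5.25% of all genes) and 1586 lower (12.5%), while 220 were higher and 197 lower by at least 2-fold. Values are MAS5 signals, a linear intensity, and differences are log2 differences, SP30 minus SP70 20 mg/kg, with the SE of the fit and n = 5 mice per group. Folds are ratios of geometric means. Signals under 165, the filter level, were raised to it in the group on the low side of a fold, and the fold is then written as at least its value. The log2 values include a pseudocount of 12.5. The median difference of all genes was -0.09, and the median signal of an array was 160.1 ± 5.22 after SP30 and 173.8 ± 4.50 after SP70 (SD, n = 5), with no overlap (exact permutation test, two-sided p = 0.00794, the smallest the design can give, 0.0159 adjusted over 2 measures). The mean signal of an array was 1708 ± 74.8 against 1744 ± 27.8 (exact permutation test, p = 0.389). With each array centred on its median, the median difference was 0.03 and 1273 genes were higher and 807 lower. With quantile normalization 1059 were higher and 1031 lower. Counts of lower genes are therefore read together with those of the centred arrays. List counts given for either scaling are to be read beside these totals of that scaling. Arrays correlated across the genes tested at 0.962 to 0.975 within the groups and at 0.947 to 0.967 between them.

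**Figure D1:**
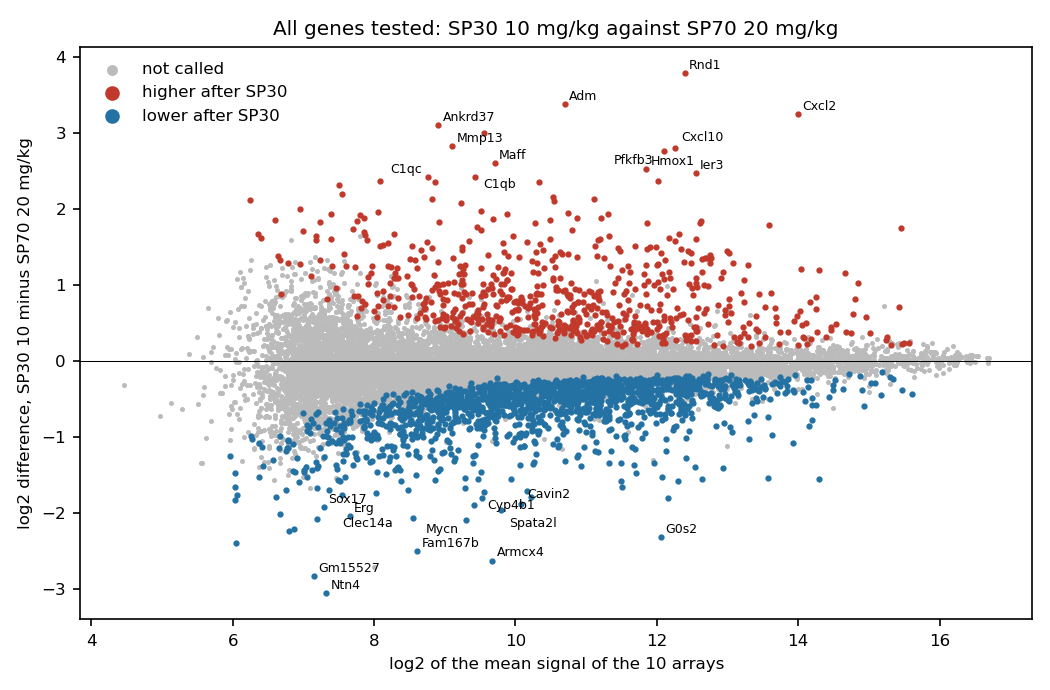
Each point is 1 of 12678 genes, with the log2 of its mean signal over the 10 arrays on the horizontal axis and the log2 difference, SP30 10 minus SP70 20 mg/kg, on the vertical axis. The 665 genes called higher reach further from 0 than most of the 1586 called lower, which crowd just below 0.

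Among called genes whose groups did not overlap, the 12 highest differences held genes of cell shape, vasodilation, chemokine signals, glycolysis and complement, and the 12 lowest held several endothelial genes. Rnd1, which loosens the actin cytoskeleton, had signals of 8815, 15831, 10252, 12831 and 2741 in the 5 SP30 mice, against 706, 985, 239, 1022 and 523 in the 5 SP70 mice. It was 14.1-fold higher after SP30 (3.79 ± 0.40, adjusted p = 4.69e-08). The lowest SP30 mouse had more than 2 times the signal of the highest SP70 mouse. Adm encodes adrenomedullin, a peptide that widens blood vessels, and its signals were 3225, 5330, 4845, 1398 and 725 after SP30, against 235, 249, 235, 220 and 175 after SP70 (11-fold, 3.39 ± 0.41, adjusted p = 3.85e-07). The SP70 mice lay close together and the SP30 mice spread widely, mice 4 and 5 being the lowest. Mmp13, a collagenase, was at least 4.05-fold higher (2.83 ± 0.56, adjusted p = 4.50e-04), with signals of 357 to 2235 in SP30 mice and of 3.58 to 285 in SP70 mice.

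At the other end stood Ntn4, netrin 4, a laminin-related protein of basement membranes. Its signals were 8.69, 15, 26.2, 20.2 and 75.0 in SP30 mice, against 303, 247, 316, 315 and 279 in SP70 mice and 616 ± 112 (SD) in control mice. All SP30 mice lay below the filter level and all SP70 mice above it, so the fold was at least 1.76 (-3.06 ± 0.25, adjusted p = 3.90e-10). Armcx4 (-2.63 ± 0.30) had signals of 123 to 309 after SP30, 1142 to 1716 after SP70 and 475 ± 195 in control mice, SP30 being called below control (adjusted p = 0.00494) and SP70 above it (1.62, adjusted p = 3.31e-05). Mycn, a Myc family transcription factor (-2.09 ± 0.39), behaved likewise, with 239 ± 103 after SP30, 1016 ± 271 after SP70 and 550 ± 319 in control mice, though the mean of its probe sets gave -1.05. G0s2, an inhibitor of the lipase that breaks down stored fat, had signals of 468 to 2242 in SP30 mice and of 2606 to 12810 in SP70 mice (5.04-fold lower, -2.32 ± 0.49). The others of the 12 lowest were Gm15527 (-2.84 ± 0.50), a predicted gene, Fam167b (-2.50 ± 0.42), Spata2l (-1.96 ± 0.34), Cyp4b1 (-1.90 ± 0.28), a cytochrome P450, and the endothelial genes Clec14a, Erg, Sox17 and Cavin2 described further on.

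**Figure D2:**
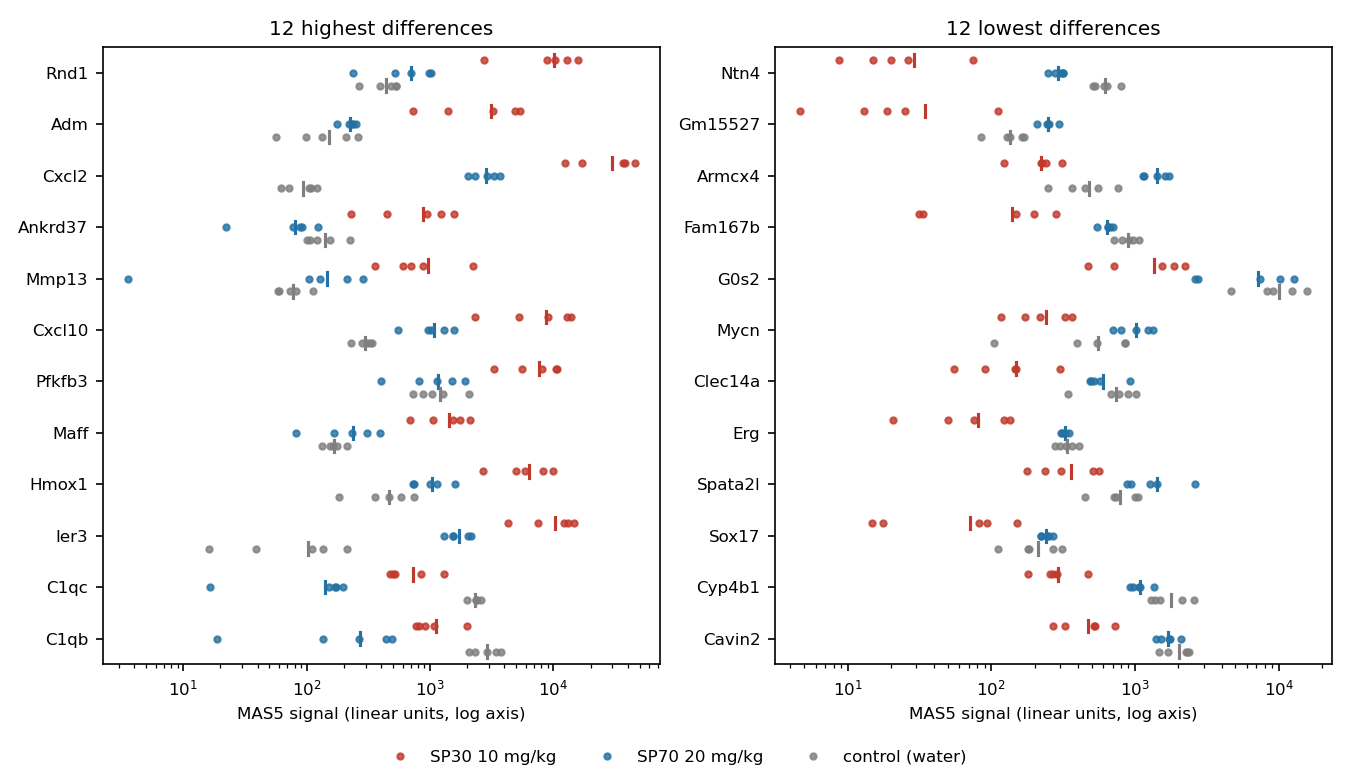
MAS5 signals on a log axis of the 12 genes with the highest and the 12 with the lowest log2 differences; each point is 1 mouse, bars are group means, and rows run SP30, SP70 20 mg/kg and control. By the rule that picked these genes the SP30 and SP70 points of a gene do not overlap; for C1qc and C1qb both groups lie below control, and for Rnd1 and Pfkfb3 the SP70 points overlap those of control mice.

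Immediate early genes, which are switched on within minutes to hours of a stress or growth signal, were mostly higher after SP30. Of 35 tested, 23 were called higher and 0 lower (limma, 1 lower at an unadjusted p under 0.05), with a median of 1.00. Over all genes 5.25% were called higher and 12.5% lower. The list was 27 higher with either scaling, beside 1059 of all genes after quantile normalization and 1273 on centred arrays. Ier3, which affects cell survival, had signals of 12088, 14609, 13156, 7437 and 4253 in SP30 mice, against 1549, 2026, 1296, 2165 and 1540 in SP70 mice (5.58-fold, 2.47 ± 0.39, adjusted p = 2.32e-05). Control mice had 103 ± 78.6, so both particle groups lay far above the vehicle. Maff, a small Maf factor, was at least 5.60-fold higher (2.60 ± 0.40), Plk3, a stress-activated kinase, 5.21-fold (2.37 ± 0.28) and Klf6, a zinc finger factor, 4.45-fold (2.13 ± 0.25). Btg2, which restrains cell division, reached 5891 to 13319 in SP30 mice and 2021 to 3413 in SP70 mice (3.52-fold, 1.81 ± 0.20). The AP-1 genes Fos (1.57 ± 0.39), Jun (1.61 ± 0.27), Junb (1.36 ± 0.22) and Atf3 (2.11 ± 0.40) were all called. Their SP30 mice were not alike. Atf3 had 4676, 3641 and 2845 in SP30 mice 1 to 3 but 682 and 899 in mice 4 and 5, still above the SP70 range of 384 to 501. In the same mice 4 and 5 Fos, Klf6, Jun and Adm were also the lowest of the 5.

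HIF target genes followed the same direction. Of 29 tested, 21 were called higher and 0 lower (1 at an unadjusted p under 0.05), with a median of 0.87, and 19 had no overlap between the groups against 4.49% of all genes. Ankrd37, an ankyrin repeat protein known as a HIF target, had 1568, 942, 1221, 229 and 452 in SP30 mice, against 22.1, 123, 78.0, 88.3 and 91.5 in SP70 mice (at least 4.33-fold, 3.10 ± 0.53, adjusted p = 7.00e-05). The SP30 mice lay above all SP70 mice, as the rule that picked the extreme genes requires. Control mice were at 141 ± 50.9 (SD). Pfkfb3, an enzyme that speeds up glycolysis, had 3304 to 10710 after SP30 and 402 to 1906 after SP70 (6.86-fold, 2.76 ± 0.33, adjusted p = 3.98e-07). Hmox1, the inducible haem oxygenase and also a target of NRF2, had 8277, 9884, 5866, 5013 and 2689 against 1582, 1131, 736, 1004 and 729 (5.83-fold, 2.53 ± 0.32). By the same rule every SP30 mouse lay above every SP70 mouse for both genes. The glucose transporter Slc2a1 was 2.79-fold higher (1.48 ± 0.17, adjusted p = 8.83e-08), the glycolytic enzyme Aldoa 2.10-fold (1.07 ± 0.12) and the hexokinase Hk2 2.13-fold (1.07 ± 0.20). Vegfa, the growth factor of blood vessels, had 4395 ± 1190 after SP30 and 2210 ± 165 after SP70, with control mice between at 3864 ± 551 (0.94 ± 0.16, adjusted p = 9.85e-05). The lactate dehydrogenase gene Ldha, at the top of the signal range, did not pass (0.17 ± 0.08, adjusted p = 0.153), although it did on centred arrays (0.29, adjusted p = 0.00742). Hif1a itself was higher by its brightest probe set (0.61 ± 0.10) and by another (0.45 ± 0.11). It was lower by a dim one (-0.96 ± 0.31, 225 after SP30 and 440 after SP70). The mean of its probe sets gave 0.03, not called, so its direction is uncertain. Of 21 targets of NRF2, the regulator of antioxidant genes, 4 were called higher and 2 lower, against 5.25% and 12.5% of all genes. After quantile normalization 6 were higher, beside 1059 of all genes, and on centred arrays 7, beside 1273. Nfe2l2, which encodes NRF2, was 2.25-fold higher (1.17 ± 0.13) and Gclm, a subunit of the enzyme that starts glutathione synthesis, 1.33-fold lower (-0.41 ± 0.08).

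Promoters of the tested members of the HIF, neutrophil chemokine, NF-kB and sterol lists, called or not, were searched for short sequence motifs. The 300 bases from 250 before to 50 after the start of Ankrd37 (RefSeq, GRCm38.p6, chr8:45999801-46000100, minus strand) are shown because it is the HIF target with a large difference and 2 matches to the core HIF motif ACGTG, in capitals.
Ankrd37: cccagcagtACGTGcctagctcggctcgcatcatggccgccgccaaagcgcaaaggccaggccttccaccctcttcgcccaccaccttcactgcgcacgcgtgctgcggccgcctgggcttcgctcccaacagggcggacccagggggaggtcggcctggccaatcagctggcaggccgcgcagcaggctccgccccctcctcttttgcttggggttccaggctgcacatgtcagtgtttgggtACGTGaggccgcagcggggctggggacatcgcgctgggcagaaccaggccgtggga
Of the 29 HIF targets tested, 25 had such a sequence and 19 of these (76.0%) held ACGTG on either strand, against 21.8% of 27025 promoters and 28.6% of those of the tested genes. Of the 18 called members with a sequence 14 held it. The list was gathered from genes known as HIF targets, so the share describes the list and not the difference. A match is not a bound site.

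Several chemokines were higher after SP30 than after SP70 at 20 mg/kg. Of 10 neutrophil chemokines, growth factors and receptors tested, 7 were called higher and 1 lower (median 1.07). Of 17 monocyte and lymphocyte chemokines 6 were higher and 0 lower (0 lower also at an unadjusted p under 0.05, median 0.84). Among all genes 5.25% were called higher and 12.5% lower. Cxcl2, which draws neutrophils, had 36769, 45437, 38063, 17031 and 12312 in SP30 mice, against 3308, 3687, 2032, 2892 and 2319 in SP70 mice (9.57-fold, 3.25 ± 0.36, adjusted p = 8.72e-08). The groups were clear of each other, as the rule that picked the extreme genes requires, and control mice were at 93.6 ± 25.2. The related Cxcl1 had a smaller difference, with 54076 ± 10440 after SP30 and 34064 ± 10302 after SP70 (SD), and its mice overlapped (0.71 ± 0.25, adjusted p = 0.0465). That call was lost without SP70 mouse 3, 4 or 5 or without SP30 mouse 1, 2, 3 or 4 (adjusted p = 0.0518 to 0.200, difference 0.49 to 0.77). These signals are close to or among the brightest 0.5% of all values, where differences may be compressed, and a dimmer probe set of the gene (16516 after SP30 and 8714 after SP70) gave 0.96 ± 0.25 (adjusted p = 0.00643). Cxcl10, an interferon-induced chemokine for T cells, had 2311 to 13966 in SP30 mice and 548 to 1568 in SP70 mice (7.09-fold, 2.81 ± 0.37, adjusted p = 1.48e-06). Ccl2, which draws monocytes, was 2.48-fold higher (1.31 ± 0.34), and Ccl3 2.25-fold (1.16 ± 0.25). Cxcl12, a chemokine that stromal and endothelial cells make, was the 1 called lower, at 3307 ± 462 after SP30, 6298 ± 1383 after SP70 and 9971 ± 1919 in control mice (-0.91 ± 0.12, adjusted p = 2.48e-06).

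The promoter of Cxcl2 (RefSeq, GRCm38.p6, chr5:90903649-90903948, plus strand, from 250 bases before to 50 after the start) is shown because it holds the consensus NF-kB motif, in capitals, matched once on each strand at overlapping positions, and the gene had the largest difference among the chemokines.
Cxcl2: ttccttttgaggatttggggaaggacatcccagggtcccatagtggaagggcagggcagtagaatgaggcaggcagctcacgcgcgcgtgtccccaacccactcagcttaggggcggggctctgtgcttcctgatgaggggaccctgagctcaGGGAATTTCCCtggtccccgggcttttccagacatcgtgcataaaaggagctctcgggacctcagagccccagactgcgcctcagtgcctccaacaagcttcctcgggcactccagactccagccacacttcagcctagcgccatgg
This motif, read on both strands, was in 3 of the 8 promoters found for the neutrophil chemokine list (37.5%) and in 8 of 16 (50%) for NF-kB pathway genes, against 5.14% of all 27025 promoters and 6.09% of those of tested genes. Among called members with a promoter it was in 3 of 6 and 7 of 14. The lists were not drawn at random, and their shares are given as a description.

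NF-kB pathway and feedback genes were called higher in 16 of 20 cases and lower in 0 (0 also at an unadjusted p under 0.05, median 1.01), against 5.25% of all genes called higher, and 11 had no overlap, against 4.49%. Nfkbie, an inhibitor of NF-kB, had 3438, 6832, 5114, 6463 and 4377 in SP30 mice, against 2429, 2163, 2160, 1990 and 1821 in SP70 mice (2.42-fold, 1.27 ± 0.15, adjusted p = 1.95e-07). The adaptor of Toll-like receptors Myd88 was 1.69-fold higher (0.75 ± 0.10), the NF-kB subunit Rela 1.65-fold (0.72 ± 0.09) and the feedback inhibitor Tnip1 2.04-fold (1.03 ± 0.14). Each of these 4 had no overlap between the groups. Among 22 cytokines and receptors 7 were higher and 1 lower, against 5.25% and 12.5% of all genes. Il1b, an inflammatory cytokine, had 3118, 4142, 4271, 3264 and 4704 after SP30, against 1503, 1311, 1119, 943 and 1314 after SP70 (3.15-fold, 1.65 ± 0.18, adjusted p = 7.20e-08). Its antagonist Il1rn was 2.67-fold higher (1.42 ± 0.33). Tnf was higher in every SP30 mouse than in every SP70 mouse but did not pass (0.84 ± 0.35, adjusted p = 0.0959), although it did with 4 times the pseudocount (0.73, adjusted p = 0.0437). Among enzymes of activated macrophages 8 of 11 were higher and 0 lower, led by Ptgs2, the inducible prostaglandin synthase (at least 2.60-fold, 2.36 ± 0.49), and Acod1, which makes itaconate (3.57-fold, 1.81 ± 0.23).

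Interferon response genes were called higher in 12 of 30 cases and lower in 0 (1 at an unadjusted p under 0.05), with a median of 0.51. After quantile normalization 19 were higher and on centred arrays 22, while the count over all genes also rose, from 665 to 1059 and 1273. Irf1, a transcription factor of this response, had 9945, 10260, 9573, 4424 and 5230 in SP30 mice, against 2362, 2273, 1822, 2685 and 2571 in SP70 mice (3.20-fold, 1.67 ± 0.22, adjusted p = 1.28e-06). Irgm2, an interferon-induced GTPase, was 2.46-fold higher (1.29 ± 0.17), while SP70 mice (3374 ± 967) were near control mice (3600 ± 472). Usp18, which dampens interferon signalling, was 2.69-fold higher (1.42 ± 0.23). The GTPase Gbp6 (-0.12) and the signal transducer Stat2 (-0.28) were among the 18 that did not pass. Of 11 leukocyte adhesion molecules 6 were higher and 2 lower, or 1 lower with either scaling. Over all genes 5.25% were called higher and 12.5% lower, and 2 of 11 lower is near that share. Icam1 reached 19050 ± 3867 after SP30 and 5513 ± 1283 after SP70 (3.48-fold, 1.79 ± 0.20, adjusted p = 7.20e-08), and the endothelial selectin Sele was 2.38-fold higher (1.22 ± 0.39). The lower ones were Pecam1 (-1.43 ± 0.44) and Icam2 (-0.77 ± 0.26), both carried by endothelial cells at rest. Pecam1 was no longer called without SP30 mouse 1 (-0.94, adjusted p = 0.109), Sele without SP70 mouse 3 or 5 or SP30 mouse 2 or 3 (adjusted p = 0.0527 to 0.0973), and Icam2 without SP70 mouse 1, 2 or 5 or SP30 mouse 1, 2, 3 or 4 (adjusted p = 0.0524 to 0.100), nor Icam2 with either scaling. Without SP70 mouse 3 only 3 adhesion molecules were called higher.

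Markers of neutrophils moved with these results, those of T, NK and B cells did not, and the part of immune cells in the results was not tested. In whole liver, fewer cells of a type and less RNA per cell cannot be told apart. Of 18 neutrophil markers tested 11 were called higher and 1 lower (median 1.18), against 5.25% and 12.5% of all genes. S100a8, a subunit of the antimicrobial protein calprotectin, had 24073, 32764, 28557, 26841 and 27772 in SP30 mice, against 13382, 12918, 14984, 10227 and 10122 in SP70 mice (2.29-fold, 1.19 ± 0.23). The groups did not overlap, and control mice were at 679 ± 291. Fpr2, a receptor for formyl peptides, was 3.33-fold higher (1.72 ± 0.19, adjusted p = 7.20e-08), Hcar2 3.75-fold (1.89 ± 0.33) and the granule gene Ngp 2.61-fold (1.36 ± 0.25). The progenitor granule genes Mpo (0.07) and Elane (-0.19) did not pass. The 1 called lower was G0s2, which fat-storing cells also express. The summed signal of the list was 60368 to 80661 in SP30 mice, 30675 to 45060 in SP70 mice and 7573 to 18143 in control mice. No marker of it was at 0. Of 17 monocyte markers 5 were higher and 0 lower (median 0.30), but only 2 without SP30 mouse 4, and 3 without SP30 mouse 5 or without SP70 mouse 3. Markers of T, NK and B cells were called in 0 of 14 cases in either direction by limma, and 0 had an unadjusted p under 0.05.

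Most Kupffer cell markers were higher after SP30 than after SP70. Of 26 tested 16 were called higher and 1 lower after SP30 (3 lower at an unadjusted p under 0.05), with a median of 1.27. Over all genes 5.25% were called higher and 12.5% lower. The other 9 markers did not pass, among them Msr1 (0.31), Sirpa (0.14) and Hpgd (-0.33). C1qc, a chain of complement C1q that macrophages make, had 519, 838, 476, 500 and 1306 in SP30 mice, against 170, 196, 173, 151 and 16.5 in SP70 mice and 2332 ± 219 in control mice (at least 3.87-fold, 2.43 ± 0.35, adjusted p = 8.63e-06). Both particle groups lay below control, SP70 further. Clec4f, a lectin restricted to Kupffer cells, had 429, 703, 596, 603 and 1274 against 258, 242, 178, 217 and 19.5, with 3784 ± 421 in control mice (at least 3.22-fold, 2.13 ± 0.47). Cd5l, which macrophages secrete, was 2142 ± 541 after SP30, near the 2810 ± 489 of control mice, and 432 ± 197 after SP70 (5.27-fold, 2.36 ± 0.29, adjusted p = 4.18e-07). Csf1r, the receptor for macrophage growth factor, was 2.29-fold higher (1.19 ± 0.13, adjusted p = 7.20e-08). C1qb was at least 3.78-fold (2.42 ± 0.48) and Vsig4, a complement receptor, 2.83-fold higher (1.46 ± 0.47), the Vsig4 call being lost without SP70 mouse 3, 4 or 5 or SP30 mouse 2 or 5 (adjusted p = 0.0513 to 0.0711). Mrc1, the mannose receptor, which sinusoidal endothelial cells also carry, was the 1 lower (-1.06 ± 0.24), at 656 ± 207 after SP30, 1338 ± 63.4 after SP70 and 3143 ± 828 in control mice. The summed signal of the list was 46088 to 63834 in SP30 mice, 36031 to 40772 in SP70 mice and 74708 to 96689 in control mice, and no marker was at 0. SP70 mouse 5 was the lowest and SP30 mouse 5 the highest for C1qc, C1qb and Clec4f. The count of higher markers was 16 without SP70 mouse 5 and 13 without SP30 mouse 5.

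**Figure D3:**
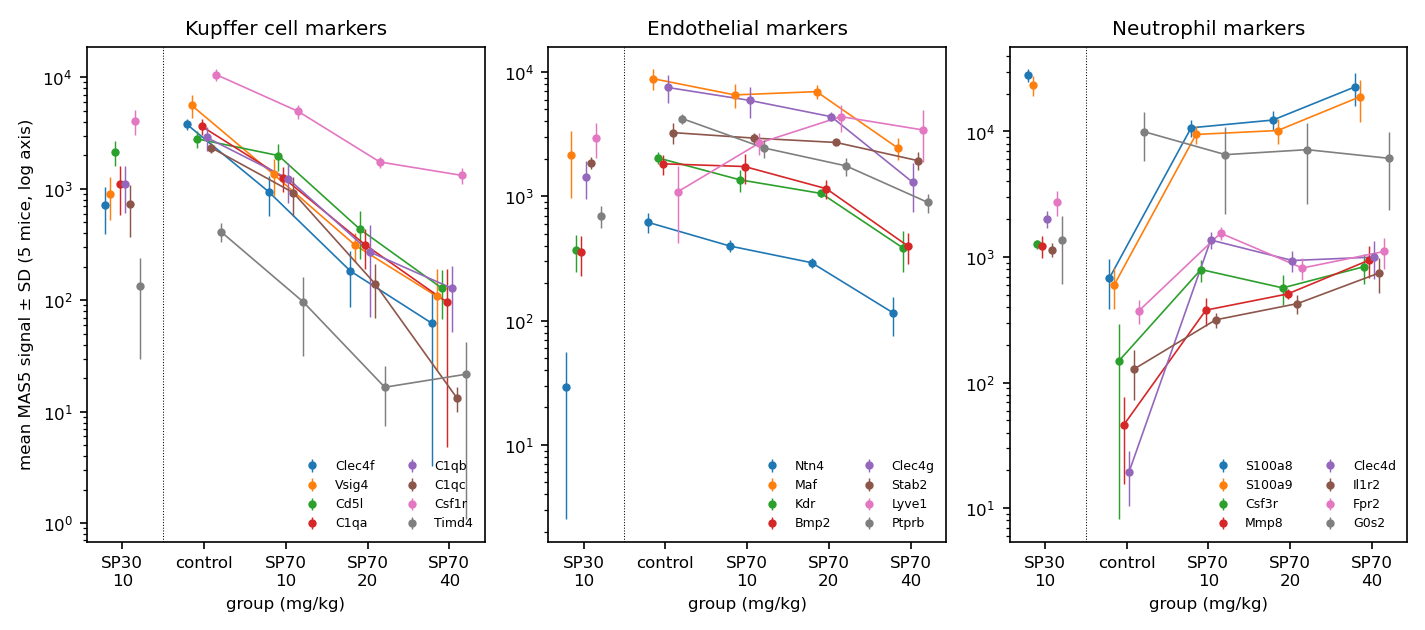
Mean MAS5 signal with SD (5 mice per group, log axis, lower bars cut short of 0) of 8 Kupffer cell, 8 endothelial and 8 neutrophil markers, with SP30 10 mg/kg at the left of the dotted line and control and 3 doses of SP70 to its right. All 8 Kupffer markers shown were higher after SP30 than after 20 mg/kg of SP70, while 7 of the 8 endothelial markers were called lower and Lyve1 did not pass. The markers shown are a choice from longer lists. Of the 26 Kupffer cell markers tested 16 were called higher, 1 was lower and 9 did not pass.

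Endothelial markers were lower after SP30 than after SP70. Of 33 tested 24 were called lower and 0 higher (0 also at an unadjusted p under 0.05), with a median of -0.91, and 22 had no overlap, against 8.78% of all genes. The count was 24 lower with either scaling, while 12.5% of all genes were called lower as deposited. Maf, a transcription factor of sinusoidal endothelium, had 1558, 1533, 1901, 1513 and 4266 in SP30 mice, against 6496, 6060, 6311, 7996 and 7870 in SP70 mice (3.51-fold lower, -1.80 ± 0.20, adjusted p = 7.83e-08). SP30 mouse 5 was nearest to the SP70 mice, as it was for Ntn4. Bmp2, which sinusoidal cells send to hepatocytes to control hepcidin, had 190, 286, 422, 353 and 518 against 1194, 991, 1291, 888 and 1386 (3.39-fold lower, -1.72 ± 0.21). Kdr, the main receptor for VEGF, was 3.00-fold lower (-1.55 ± 0.21), Clec4g, a sinusoidal lectin, 3.17-fold (-1.65 ± 0.26), and Ptprb, a phosphatase of endothelial junctions, 2.54-fold (-1.33 ± 0.15). The scavenger receptor Stab2 was lower by 1.46-fold (-0.54 ± 0.13), and its SP30 mice (1590 to 2167) lay below all SP70 mice (2599 to 2904). The hyaluronan receptor Lyve1 (-0.59 ± 0.42), Vwf (-0.49 ± 0.26) and Bmp6 (0.27) did not pass. The summed signal of the list was 17960 to 30108 in SP30 mice, 43055 to 48378 in SP70 mice and 53230 to 70048 in control mice. Ntn4 lay below the filter level in every SP30 mouse.

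Transcription factors and surface proteins of endothelium outside that list were among the lowest of all genes. Erg, an ETS factor that keeps endothelial identity, had 135, 20.8, 75.9, 49.96 and 122 in SP30 mice, against 326, 349, 310, 326 and 306 in SP70 mice and 337 ± 50.8 in control mice (at least 1.96-fold lower, -2.04 ± 0.28, adjusted p = 4.23e-06). SP70 mice were at the control level and all SP30 mice below the filter level. Cavin2, a coat protein of caveolae, was 3.77-fold lower (-1.88 ± 0.19, adjusted p = 3.97e-08), Clec14a at least 3.11-fold (-2.07 ± 0.34) and Sox17 at least 1.46-fold (-1.93 ± 0.38). Of 28 genes of vascular tone and flow 6 were higher, against 5.25% of all genes, and 4 lower, near the 12.5% of all genes. Procr, the receptor for protein C, was 3.19-fold higher (1.65 ± 0.27) and Klf2, a factor induced by flow, 1.87-fold higher (0.88 ± 0.18). Hes1, a target of Notch, was 2.60-fold lower (-1.35 ± 0.26). The nitric oxide synthase Nos3 (0.13 ± 0.15) and endothelin, Edn1 (0.07 ± 0.29), did not pass.

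Markers of stellate cells and fibroblasts, which wrap the sinusoids and make matrix, were called lower in 9 of 24 cases and higher in 0 (median -0.54). Of all genes 12.5% were called lower. With either scaling 6 markers were lower, beside 1031 of all genes after quantile normalization and 807 on centred arrays. Pdgfrb, a growth factor receptor, was 2.00-fold lower (-0.99 ± 0.14, adjusted p = 6.29e-06), and Hgf, the hepatocyte growth factor, 1.94-fold lower (-0.92 ± 0.22). Hgf was 234 ± 51.1 after SP30, 448 ± 58.3 after SP70 and 221 ± 90.1 in control mice. Tagln, an actin-binding protein of contractile cells, was 409 ± 148 after SP30, 947 ± 119 after SP70 and 347 ± 133 in control mice (-1.26 ± 0.27). For both genes SP30 mice were near control and SP70 mice above it. The stellate cell marker Lrat (-0.64) and the desmin gene Des (-0.77) did not pass, although Lrat did without SP70 mouse 4 (-0.81, adjusted p = 0.0355) and by the mean of its probe sets (-0.94, adjusted p = 0.00547). The count was 5 without SP30 mouse 4 or without SP70 mouse 3. The summed signal of the list was 36329 to 57859 in SP30 mice, 56474 to 65836 in SP70 mice and 58766 to 78707 in control mice.

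**Figure D4:**
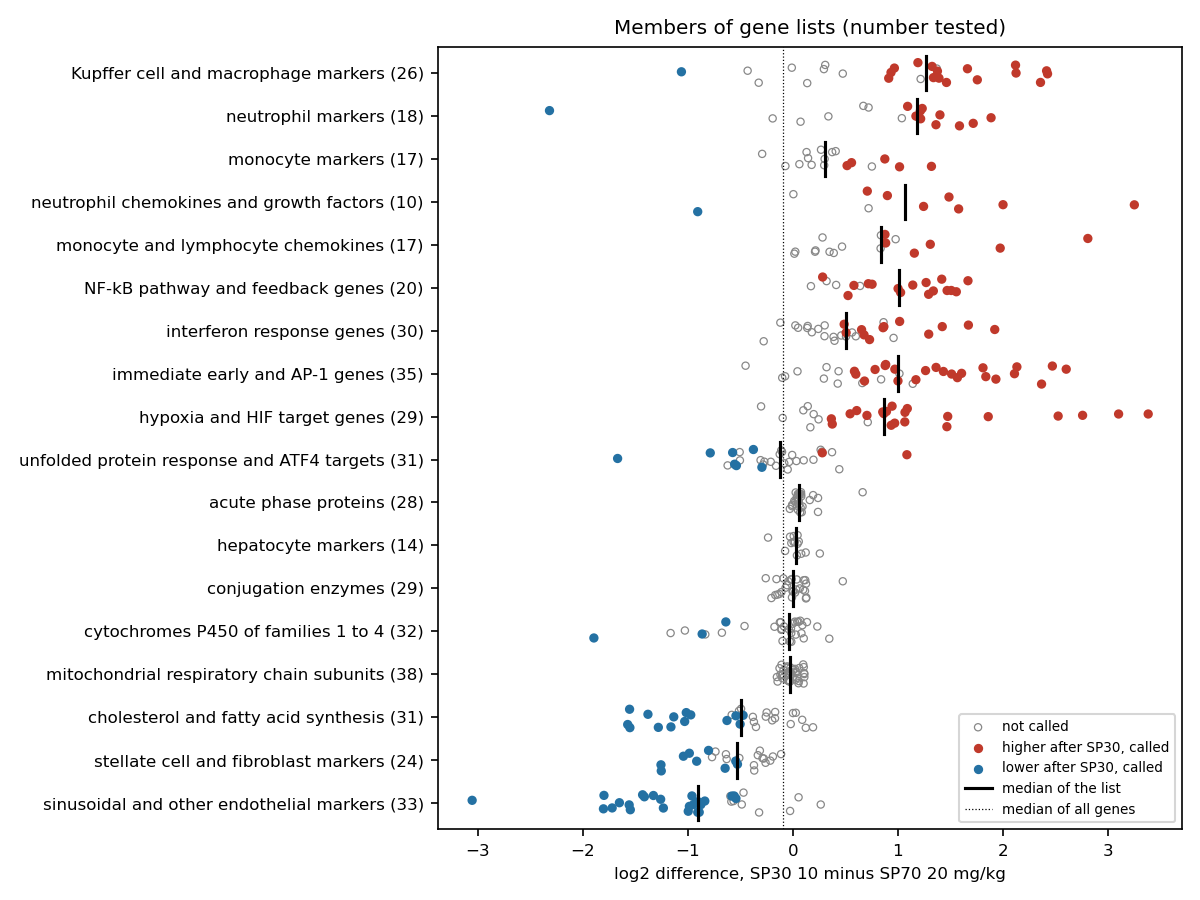
Log2 difference, SP30 10 minus SP70 20 mg/kg, of each tested member of 18 gene lists, filled where called, with the list's median as a bar and the median of all genes, -0.09, as a dotted line. Members of the immune, immediate early and hypoxia lists lie to the right, hepatocyte lists close to 0, and sterol, stellate and endothelial lists to the left.

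Among the lists of hepatocyte functions, the synthesis of cholesterol and fatty acids had the most called members. Of 31 genes 14 were called lower and 0 higher, with a median of -0.49, against 12.5% of all genes called lower. On centred arrays 9 were lower, beside 807 of all genes. After quantile normalization 12 were lower, beside 1031 of all genes. Hmgcs1, which starts the sterol pathway, had 14144, 9076, 9254, 8794 and 9554 in SP30 mice, against 26852, 39279, 20302, 34137 and 30149 in SP70 mice (2.94-fold lower, -1.56 ± 0.35, adjusted p = 0.00168). All SP30 mice lay below every SP70 mouse, with SP30 mouse 1 apart from the other 4, and control mice spread at 24371 ± 11856. Fdft1, squalene synthase, had 3416, 3532, 2847, 3318 and 2674 against 6599, 9855, 6382, 8343 and 7577 (2.44-fold lower, -1.28 ± 0.23, adjusted p = 1.41e-04). Lss, which closes the sterol ring, was 2.62-fold lower (-1.38 ± 0.26), Idi1 2.94-fold (-1.55 ± 0.39), Mvd 2.22-fold (-1.13 ± 0.25) and Cyp51 2.25-fold (-1.16 ± 0.32). For Lss and Mvd the SP70 mice (2856 ± 818 and 1481 ± 274) were above control (1878 ± 1070 and 824 ± 468), and the SP30 mice (1056 ± 88.9 and 667 ± 114) below it in their means. Sqle, squalene epoxidase, was lower with overlap between the mice (-1.57 ± 0.49, adjusted p = 0.0220), and missed the threshold without SP70 mouse 2 or 4 or SP30 mouse 4 (adjusted p = 0.0522 to 0.0544). Srebf2, the regulator of this pathway, was 1.46-fold lower (-0.54 ± 0.17), but was not called with either scaling, nor without SP70 mouse 3 or 5 or SP30 mouse 3 or 5 (adjusted p = 0.0513 to 0.0728). The fatty acid genes Fasn (-0.49 ± 0.35), Scd1 (0.12) and Srebf1 (-0.17) did not pass.

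The promoter of Hmgcs1 (RefSeq, GRCm38.p6, chr13:119690101-119690400, plus strand, from 250 bases before to 50 after the start) is shown as that of the first enzyme of the group, with its 1 match to the sterol motif TCACNCCAC in capitals.
Hmgcs1: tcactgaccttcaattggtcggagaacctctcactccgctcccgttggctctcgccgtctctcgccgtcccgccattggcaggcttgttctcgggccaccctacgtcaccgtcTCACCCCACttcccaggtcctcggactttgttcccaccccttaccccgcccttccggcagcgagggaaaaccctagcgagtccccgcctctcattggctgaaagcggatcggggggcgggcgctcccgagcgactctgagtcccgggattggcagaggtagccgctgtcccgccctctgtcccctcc
The motif was found on either strand in 2 of 25 promoters of the list (8%), against 1.44% of all 27025 promoters and 1.44% of those of tested genes. Of the 9 called members with a promoter 1 held it. No match elsewhere says only that these letters are not in the window.

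**Figure D5:**
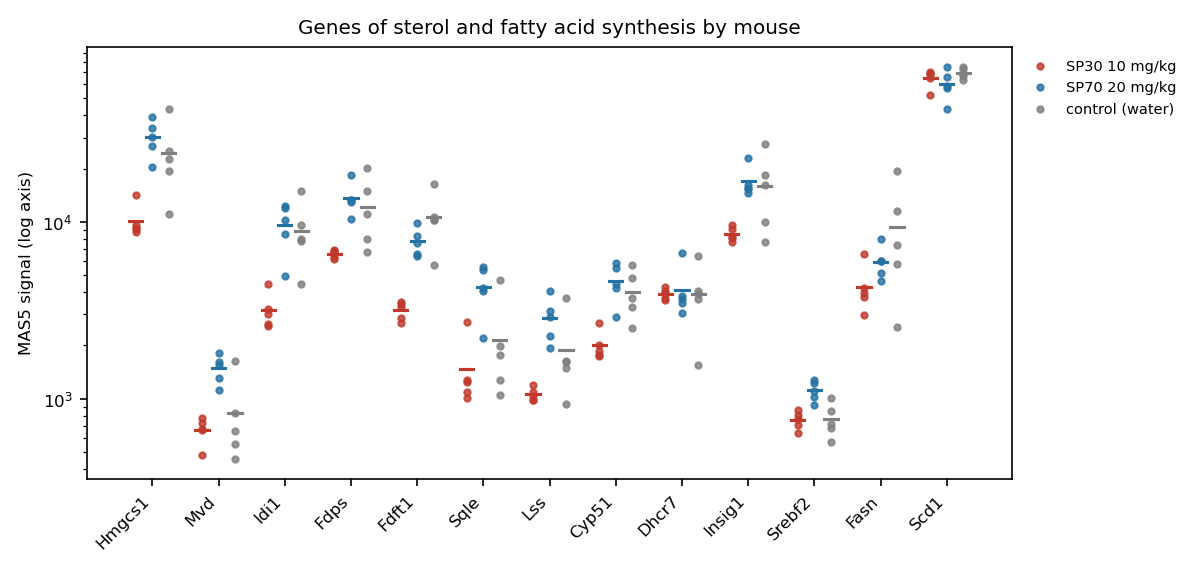
MAS5 signals by mouse (log axis) of 13 genes of sterol and fatty acid synthesis, SP30 10 mg/kg, SP70 20 mg/kg and control from left to right within each gene, with bars for the means. The SP30 points of Hmgcs1, Fdft1, Lss, Mvd, Fdps and Insig1 lie below all SP70 points, whereas those of Dhcr7, Fasn and Scd1 overlap them.

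Genes of the unfolded protein response and of ATF4, by which cells answer misfolded proteins and amino acid shortage, were called higher in 2 of 31 cases and lower in 7 (median -0.13). The shares of all genes were 5.25% higher and 12.5% lower. On centred arrays 5 were higher and 4 lower (median 0.00) and after quantile normalization 5 were higher and 7 lower, so the balance depends on the scaling, and 13 were lower when only the arrays of both groups were fitted. Fgf21, a liver hormone and ATF4 target, had 473, 183, 235, 163 and 450 in SP30 mice, against 822, 571, 1184, 693 and 1499 in SP70 mice (at least 3.28-fold lower, -1.67 ± 0.33, adjusted p = 4.56e-04). SP30 mice (301 ± 149) were at the level of control mice (273 ± 127). Sel1l, part of the machinery that removes misfolded proteins, was 7418 ± 1896 after SP30, 12579 ± 1342 after SP70 and 7138 ± 574 in control mice (-0.79 ± 0.12, adjusted p = 1.91e-05). Ppp1r15a, which ends the block on translation, was 2.14-fold higher (1.09 ± 0.21). The chaperone Hspa5 (-0.16 ± 0.11) and Ddit3 (0.37 ± 0.21) did not pass.

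Lists of hormone, transcription factor and iron genes of the liver had members called in both directions. Over all genes 5.25% were called higher and 12.5% lower. Of 17 genes of the growth hormone and STAT5 axis 5 were higher and 1 lower (median 0.33). Cish, a feedback inhibitor of STAT5, had 3516 ± 607 after SP30, close to the 3419 ± 820 of control mice, and 1189 ± 378 after SP70 (3.06-fold, 1.60 ± 0.26, adjusted p = 3.42e-05). Igfbp1, a binding protein for insulin-like growth factors, had 67074 ± 14865 after SP30 and 22479 ± 14010 after SP70, with overlap between the mice (1.75 ± 0.42). Of 21 glucocorticoid response genes 3 were higher and 5 lower, or 2 lower on centred arrays. Tsc22d3, a mediator of glucocorticoids, had 2561 ± 584 after SP30, 7523 ± 745 after SP70 and 14562 ± 5285 in control mice (3.00-fold lower, -1.58 ± 0.22, adjusted p = 3.43e-06). Of 23 hepatocyte transcription factors and nuclear receptors 3 were higher and 6 lower, or 3 lower on centred arrays. Nr0b2, a repressor of bile acid synthesis, was 2.55-fold lower (-1.34 ± 0.35), and Prox1 2.03-fold lower (-1.02 ± 0.21, or -0.59 by the mean of its probe sets). Of 22 iron handling genes 6 were higher and 2 lower, among them Hjv, the coreceptor that relays BMP signals to hepcidin (-1.05 ± 0.15, adjusted p = 5.09e-06). The hepcidin gene Hamp itself did not pass (0.19 ± 0.14).

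The bulk of hepatocyte genes stood close together in both groups. Of 28 acute phase proteins 0 were called in either direction by limma (1 at an unadjusted p under 0.05, median 0.06), although 20 were called higher in each group against control. Saa3 was 87881 ± 6194 after SP30, 89556 ± 3681 after SP70 and 1166 ± 278 in control mice (-0.03 ± 0.12). Saa1 (0.07 ± 0.17, 95% interval -0.28 to 0.42) and Lcn2 (0.07 ± 0.22, -0.38 to 0.51) were also near 0. These signals lie among the brightest 0.5% of all values, above 48037, and the files used here hold no saturation calls, so a difference at this level may be compressed. Hepatocyte markers (0 of 14, median 0.03), conjugation enzymes (0 of 29, median 0.00), subunits of the respiratory chain (0 of 38, median -0.03) and ribosomal proteins (0 of 27, median 0.05) had no called member in either direction in limma's test, with at most 1 member each at an unadjusted p under 0.05. On centred arrays 8 respiratory chain and 9 ribosomal protein genes were called higher, and 4 acute phase proteins, beside 1273 of all genes. Of 32 cytochromes P450 of families 1 to 4, 0 were higher and 3 lower, against 12.5% of all genes called lower. The 3 were Cyp4b1, Cyp2c39 (-0.86 ± 0.27) and Cyp2r1 (-0.64). The call of Cyp2c39 was lost on centred arrays and without SP70 mouse 3 or 4 or SP30 mouse 2 (adjusted p = 0.0567 to 0.106), and that of Cyp2r1 with either scaling and without SP70 mouse 1, 2, 3 or 4 or SP30 mouse 1, 2 or 4 (adjusted p up to 0.108). The summed signal of the hepatocyte markers was 863010 to 973070 in SP30 mice, 877080 to 937090 in SP70 mice and 864190 to 908160 in control mice.

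The same genes were then read against control and against SP70 at 40 mg/kg, the toxic dose of the larger particle. These comparisons share the SP30 or SP70 20 mg/kg arrays with the main one and are given side by side only. Against control 18.0% of all genes were called higher and 31.2% lower after SP30, and 18.7% higher and 20.9% lower after SP70 at 20 mg/kg. Of the 35 immediate early genes 31 were higher and 0 lower after SP30 and 20 higher and 2 lower after SP70. Of the 29 HIF targets 20 were higher and 4 lower after SP30, and 11 higher and 4 lower after SP70. Of the 33 endothelial markers 22 were lower and 1 higher after SP30, and 12 lower and 2 higher after SP70. Of the 26 Kupffer cell markers 15 were lower and 6 higher after SP30, and 18 lower and 3 higher after SP70. Of the 31 sterol and fatty acid genes 20 were lower and 0 higher after SP30, and 10 lower and 4 higher after SP70.

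Set against SP70 at 40 mg/kg, SP30 had 3.69% of all genes higher and 2.04% lower. Of the HIF targets 1 was higher and 3 lower, of the immediate early genes 1 was higher and 0 lower, and of the endothelial markers 0 were higher and 1, Ntn4, was lower (-1.73, adjusted p = 2.09e-05). Rnd1 was at 10094 ± 4902 after SP30 and 7760 ± 3450 after SP70 at 40 mg/kg, Adm at 3105 ± 2036 and 2764 ± 1504, and Cxcl2 at 29922 ± 14406 and 26958 ± 12292, and none of these 3 passed (adjusted p = 0.787, 0.976 and 0.941). Vegfa was lower after SP30 than after that dose (-0.76, adjusted p = 0.00293). Kupffer cell markers were higher in 18 of 26 cases and lower in 0, with a median of 1.47. C1qc was at 728 ± 355 after SP30, 13.4 ± 3.33 after SP70 at 40 mg/kg and 141 ± 71.5 at 20 mg/kg (4.73 against 40 mg/kg, adjusted p = 1.89e-11). Mmp13 was at 955 ± 740 after SP30, 43.2 ± 32.0 after SP70 at 40 mg/kg and 147 ± 107 at 20 mg/kg (4.05, adjusted p = 1.00e-05). At 10 mg/kg of SP70, the dose of equal mass, neither gene was called, with C1qc at 728 ± 355 after SP30 and 924 ± 351 after SP70 (-0.36, adjusted p = 0.483) and Mmp13 at 955 ± 740 and 667 ± 264 (0.35, adjusted p = 0.687). Against that dose 2 of the 26 Kupffer cell markers were higher and 3 lower (median -0.13), while 5.37% of all genes were higher and 23.5% lower. Interferon response genes were higher in 12 of 30 cases against 40 mg/kg and NF-kB genes in 8 of 20, and the sterol and fatty acid list had 0 called in either direction in limma's test (6 lower and 0 higher at an unadjusted p under 0.05).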

How the data were processed

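The authors deposited 1 intensity per probe set and array on a linear scale. The tool in the submitters' processing notes is MAS5 (version not stated), and how arrays were scaled is not stated in the labels. The table holds 45101 probe sets, 64 of them controls. The platform's annotation gave 1 gene for 34945, several for 932 and none named here for 9160, and the gene identifiers of 34741 were also in the RefSeq table.

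Values were raised by a pseudocount of 12.5 (their 10th percentile) and taken to log2. Kept were 26864 probe sets with a signal over 165 (the median value) on 5 or more arrays, and a gene was represented by its kept probe set of highest mean log2 value. The 35 arrays of 7 groups were fitted together with limma 3.58.1 in R 4.3.3, with 1 mean per group, a variance trend and no other term, and p-values were adjusted over 12678 genes. The fit was tested on simulated data.

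The genes named by rule are the 12 highest and 12 lowest differences among called genes whose groups do not overlap, with all mice of the higher group above 165, and up to 4 members per list with the smallest adjusted p. Other list members were named after their values were seen. The comparison, the lists and the rule were chosen with earlier results of these data known, and lists of the 50 tested were picked for description after their counts were seen. The labels call the arrays biological replicates. Array numbers did not pair the mice (deviations of same-numbered arrays correlated at -0.00518 to 0.0739 over 5 pairs, those of other numbers at -0.0864 to 0.0689). The number of arrays limits the precision. Promoter sequences are those of RefSeq, build GRCm38.p6.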

Additional observations from a re-analysis of the deposited data

Results flagged for a closer look

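For each gene named, the highest or lowest mouse of each group was compared with the other 4 by Dixon's ratio on log2 signals. Of 280 groups tested 24 held a mouse past the critical value of 0.71, and chance alone flags about 1 in 20 groups. No cause was tested.

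Among SP30 10 mg/kg mice, mouse 1 stood apart 5 times. It was highest for Hmgcs1 at 14144 (others 8794 to 9554) and for Sqle at 2716 (1004 to 1272). It was lowest for Pecam1 at 30.7 (178 to 249), for Cish at 2491 (3565 to 4057) and for Scd1 at 52375 (64778 to 70200). SP30 mouse 5 was highest for Maf at 4266 (1513 to 1901), for Cxcl12 at 4115 (2981 to 3204) and for Cfp at 815 (431 to 502), and lowest for Igfbp1 at 42356 (69031 to 82513). SP30 mouse 2 was highest for Edn1 at 387 (207 to 237), and mouse 4 lowest for Mpo at 5.75 (91.8 to 184).

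Among SP70 20 mg/kg mice, mouse 5 was lowest for the Kupffer cell genes C1qc at 16.5 (others 151 to 196) and Clec4f at 19.5 (178 to 258), for Mpo at 19.1 (87.1 to 136) and for Fos at 464 (518 to 541). Mouse 2 was highest for the sterol genes Dhcr7 at 6708 (3044 to 3819) and Insig1 at 22993 (14587 to 16068), and for Nos3 at 712 (438 to 465). Mouse 3 was highest for Clec14a at 930 (484 to 573) and Slc2a1 at 2290 (1754 to 1870), and lowest for Tnf at 85.5 (225 to 281). Mouse 4 was lowest for Fam167b at 544 (652 to 698) and Pdgfrb at 1002 (1300 to 1377), and mouse 1 for Hal at 3760 (4926 to 5241).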

How the results depend on the processing

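The split of calls depended on the scaling of the arrays. Quantile normalization gave 1059 genes higher and 1031 lower, and arrays centred on their median 1273 higher and 807 lower, against 665 and 1586 as deposited. All other settings called 1998 (no filter) to 2427 (mean of all probe sets) genes. Leaving out 1 mouse at a time gave 1753 to 2351 calls, with 531 to 642 higher and 1167 to 1718 lower, and 179 to 237 higher and 172 to 234 lower by 2-fold or more. With a replicate block, although the numbers do not pair the mice, 2217 were called (666 higher, 1551 lower). Of 140 named genes 117 were called. Of these 10 lost the call without some mouse and 9 in another setting, and Slc39a14 reversed with the mean of all probe sets (-0.18, not called). Beside the values given with the results, Fdps was not called on centred arrays or without SP70 mouse 2, 4 or 5 or SP30 mouse 1 or 2 (adjusted p = 0.0503 to 0.0822), and the urea cycle list had 2 higher members and 1 lower on centred arrays, and 2 or 3 lower without SP70 mouse 2, 3 or 5 or SP30 mouse 2 or 3. Glucocorticoid genes had 3 lower without SP30 mouse 2. The extreme genes kept their calls wherever tested. Signals below 165 give only bounds on folds.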

Other observations

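Other lists follow, beside 5.25% of all genes called higher and 12.5% called lower. Of 24 apoptosis and cell death genes 6 were higher and 3 lower after SP30 (median 0.32), and 10 were higher with either scaling. Of all genes 1059 were higher after quantile normalization and 1273 on centred arrays. Bid, which carries death signals to mitochondria, had signals of 3955, 4010, 3709, 3922 and 3615 in SP30 mice, against 2177, 1992, 2107, 2089 and 2044 in SP70 20 mg/kg mice (1.84-fold, 0.88 ± 0.12, adjusted p = 1.90e-06 in limma's fit). Each group kept to a narrow band, and control mice were at 524 ± 118. Mcl1, which restrains that death pathway, was also 1.84-fold higher (0.88 ± 0.13), with SP70 mice (7898 ± 995) at the level of control mice (7767 ± 900). The inhibitor of apoptosis Birc3 was 2.53-fold higher (1.34 ± 0.21, or 0.64 by the mean of its probe sets). Of 18 clock genes 2 were higher and 0 lower (0 lower also at an unadjusted p under 0.05). Bhlhe40, a repressor of the clock, had 14106, 13263, 10354, 7170 and 5978 after SP30, against 3260, 3433, 3500, 4391 and 4442 after SP70 and 3764 ± 1006 in control mice (2.55-fold, 1.35 ± 0.21). Of 8 red cell and platelet transcripts 2 were higher and 0 lower, the platelet chemokines Ppbp (at least 2.87-fold, 1.49 ± 0.21) and Pf4 (1.88-fold, 0.90 ± 0.15), and neither group overlapped the other.

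Of 29 urea cycle and amino acid genes 0 were higher and 5 lower, near the 12.5% of all genes called lower, and on centred arrays 2 were higher and 1 lower (median 0.10). Hal, which starts the breakdown of histidine, was 3067 ± 342 after SP30, 4849 ± 622 after SP70 and 12140 ± 3746 in control mice (-0.66 ± 0.17, adjusted p = 0.00458). Of 29 bile acid genes 1 was higher and 5 lower, also near that share. Among these 5 was the canalicular transporter Abcc2 at 3642 ± 381 after SP30, 5496 ± 247 after SP70 and 5925 ± 324 in control mice (-0.60 ± 0.14). Of 23 complement genes other than C1q 3 were higher and 2 lower, against 5.25% and 12.5% of all genes, or 5 and 1 on centred arrays. Cfp, properdin, was at least 2.60-fold higher (1.34 ± 0.27, or 0.67 by the mean of its probe sets) and Cd55, which protects cells from complement, at least 2.47-fold lower (-1.32 ± 0.28).

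Genes outside all lists follow, chosen after their values were seen. Rnf186, a ubiquitin ligase, averaged 1330 after SP30, 178.8 after SP70 and 335.5 in control mice (3.00 ± 0.45), and its groups overlapped. Gcnt2, a glycosyltransferase, averaged 3776 after SP30, 984 after SP70 and 1309 in control mice (1.88 ± 0.16, adjusted p = 3.90e-10, or 1.06 by the mean of its probe sets). Ebi3, a cytokine subunit (2.32 ± 0.42), Cd274, the checkpoint ligand PD-L1 (1.83 ± 0.36), and the transcription factor Batf (1.88 ± 0.50) were called higher against SP70 at 20 mg/kg. Against SP70 at 40 mg/kg the differences were 2.09 for Ebi3, 2.26 for Cd274 and 2.06 for Batf, and all 3 were called there too. The capillary lipase anchor Gpihbp1 (-1.79 ± 0.28) and the endothelial factor Sox18 (-1.70 ± 0.25) were lower. Of 4204 kept probe sets with no gene or several, 145 were called higher and 349 lower. Slc39a14, a zinc and iron transporter, was higher by its brightest probe set (0.41 ± 0.12, adjusted p = 0.0126) and lower by a dim one (-0.88, adjusted p = 0.0119), so its direction is uncertain.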
